A study of Mus musculus with 12 samples.

Results

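Retnlg-positive neutrophils were cells of MC38 tumors that carried transcripts of Csf3r, the receptor for granulocyte colony-stimulating factor, and of Retnlg, a resistin-like protein of granulocytes, without a transcript of the chemokine Ccl3. They were chosen from 1 matrix of unique molecular identifier (UMI) counts, in which each UMI stands for 1 captured transcript. Cells with over 200 and under 5000 genes whose mitochondrial UMIs did not exceed 10% were kept. A member had at least 1 UMI of Csf3r, at least 2 of Retnlg and none of Ccl3, of the macrophage gene Adgre1 or of the T cell genes Cd3d, Cd3e and Cd3g. In addition, S100a8 and S100a9, which encode the subunits of calprotectin, had to reach 20 of 10000 UMIs together, and the complement genes C1qa, C1qb and C1qc had to stay under 5 of 10000. This left 179 members of 128912 cells kept. Measured values chose them, so the levels of these 12 genes describe the choice, and no test was made of them.

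The cells were CD45+ cells isolated with magnetic beads on day 17 from tumors of C57BL/6 mice, which had been injected subcutaneously with MC38, a mouse colon carcinoma line. Mice received vehicle or PF-06821497, an inhibitor of the H3K27 methyltransferase EZH2 (EZH2i), at 100 mg/kg subcutaneously each day, from day 10 (groups Vehicle_7d and EZH2i_7d, 7 days of treatment) or from day 1 (Vehicle_16d and EZH2i_16d, 16 days), with 3 samples in each of the 4 groups. Nothing in the labels says whether a sample came from 1 mouse or from several. All 12 libraries were pooled in the matrix. Each barcode ended in a library number from 1 to 12, which no label used here ties to a sample, so vehicle and EZH2i were not compared, and all values below are over all 4 groups or over single numbered libraries. No result has a replicate test, and intervals, all at 95%, cover counting error only.

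Neutrophils are short-lived granulocytes that leave the bone marrow with their granules already filled. Granule proteins are made in waves: primary granule enzymes in promyelocytes, secondary granule proteins such as lactoferrin in myelocytes, and tertiary granule proteins such as gelatinase later, while receptors and cytokines are induced in the mature cell. In mouse tumors, neutrophils that resemble those of the blood (Retnlg, Cxcr2) lie beside cells that have turned on Ccl3, Ccl4, Cd274 and genes of lipid storage and hypoxia.

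The 12 libraries contributed unequally. The lowest number of members in a library was 1, the median 14 and the highest 44, in library 8. As a share of the cells kept in a library, members ranged from 0.00511% in library 5 (exact Clopper-Pearson interval 0.000129 to 0.0285%) to 0.715% in library 8 (0.520 to 0.959%). Csf3r-positive cells that met every limit except those on Retnlg and Ccl3, called neutrophils below, numbered 1273, of which the members were 14.1%. That share was lowest in library 4, where 22 of 400 neutrophils (5.50%) were members, and the intervals of libraries 1 (18.8 to 44.1%) and 4 (3.48 to 8.21%) did not overlap. Members had a median of 1377 UMIs (lowest 511, highest 17566) and 579 genes, and their libraries' median UMIs ranged from 523 to 3390. Library 8 alone gave 45.1% of all UMIs of members.

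**Figure D1:**
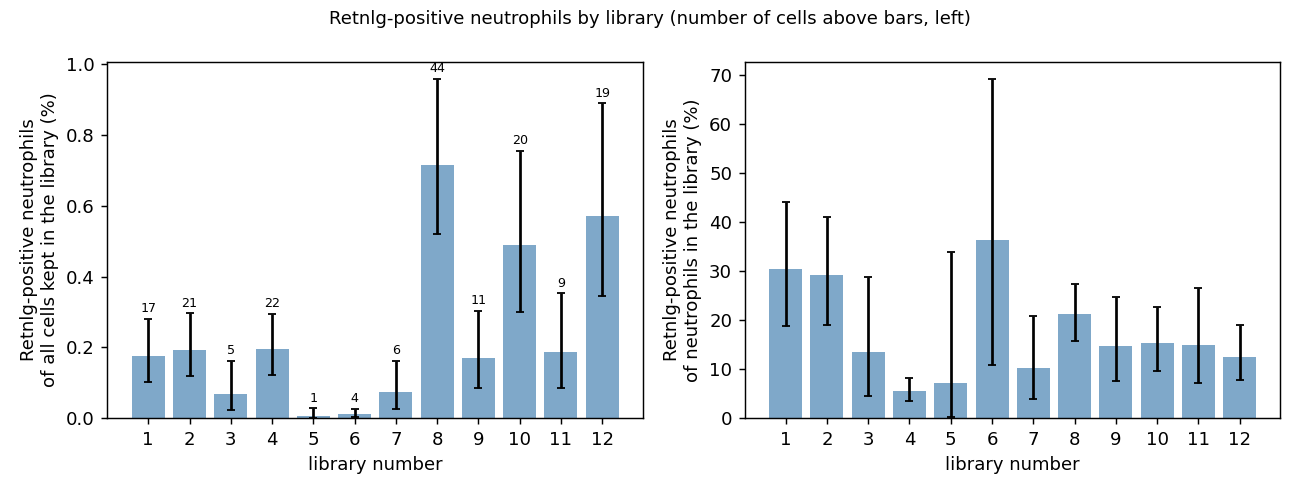
Retnlg-positive neutrophils as a share of all cells kept (left) and of all neutrophils (right) in each of the 12 libraries. Bars give the share in percent, error bars the exact binomial interval, and numbers the members. Library 8 had the highest share of all cells, 0.715%, and library 4 the lowest share of neutrophils among libraries with 10 or more members, 5.50%.

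Libraries also stood apart in ways the rule did not use. The methods name female mice, yet among neutrophils UMIs of the Y-linked genes Ddx3y, Eif2s3y, Kdm5d and Uty occurred in libraries 1 to 6 and none in 7 to 12, where Xist was found; no library held both. Of the 127014 barcode sequences of cells kept, 1877 occurred in more than 1 library, among them 8 of the 179 members' sequences, and no 2 members shared one. The 7 libraries 1, 2, 4, 8, 9, 10 and 12 held at least 10 members each and are used below for values by library.

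Members held a median of 7 Retnlg UMIs (quartiles 4 and 15, highest 488). Of the 179 members, 30 had exactly 2 Retnlg UMIs, the lowest number allowed, and 47 cells with 1 UMI were just outside. With 1 UMI of Ccl3, 37 cells were just outside, and 40 members had exactly 1 UMI of Csf3r. Dropping the limit on Ccl3 gave 516 cells, dropping that on Retnlg 445 and dropping that on Csf3r 217. Without the limit on Adgre1 or on the Cd3 genes there were 188 and 192.

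The neutrophil label was checked with genes outside the rule. Levels are CPM (the UMIs of a gene per 1000000 UMIs of the class). All 20 genes of a neutrophil list, from Cxcr2, the receptor for neutrophil-attracting chemokines, to Hdc, the histamine-forming enzyme, were found in members. T cell and natural killer, B and plasma cell, tumor and stromal, erythroid and platelet, and eosinophil, basophil and mast cell markers summed to between 14.4 and 45.5 CPM (the UMIs of a gene per 1000000 UMIs of the class). Trac, Cd79b, Krt8, Krt18, Epcam, Epx, Mcpt8 and Cpa3 were at 0, but their lists also held genes that were found. Transcripts of macrophages were present: Apoe, an abundant macrophage gene, had a UMI in 76.5% of members (69.6 to 82.5%), and also in 80.9% of T cells, which should lack it, at median depths of 1377 and 3365 UMIs. Per UMI, Apoe was at 898 to 5152 CPM in the members of the 7 libraries with at least 10, at 293 to 940 in T cells and at 14563 to 28444 in macrophages, and members were above T cells in 7 of 7. The part of free transcripts in this was not tested. Retnlg itself was found in 0.786% of T cells (0.551 to 1.09%), with at most 8% in a library. S100a8 was found in 2.88% of T cells, with at most 20% in a library.

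To see what sets these cells apart from the tumor neutrophils that express Ccl3, members were compared with 342 neutrophils that had at least 2 Ccl3 UMIs and no Retnlg. Granule genes were held in a secondary and a tertiary list, whose names do not place each gene in a granule or a wave. Members had more transcripts of 5 of 6 genes of the tertiary list, Mmp8 among them, and of Lcn2 and Anxa1 of the secondary list. Of the 5, Ceacam10 was tested only because of its level in members. Members also had more of Slc2a3, a glucose transporter. Of 3 further secondary granule genes (Ltf, Camp and Ngp), 98.2% of the members' UMIs were in 3 of the 179 cells. They had fewer of 12 of 17 chemokines and cytokines, of 13 of 22 genes of tumor-resident or aged neutrophils, and of 9 of 22 glycolysis and hypoxia genes and 9 of 20 interferon genes. Levels are CPM of all UMIs of a class, and differences are log2 ratios of CPM plus 10, members over the other class. Of 3210 genes with a mean of at least 30 CPM, 214 were at least 2-fold higher in members (6.67%) and 263 at least 2-fold lower (8.19%), with a median log2 ratio of 0.04. Of these 477 genes, 126 had the same sign in all 7 libraries. Library 4 gave 45.6% of the Ccl3-positive cells and 12.3% of the members, and of the genes past 2-fold 171 of the 214 and 195 of the 263 stayed so without it. The members' levels here come from the same cells as the rule, so the counts describe the classes.

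**Figure D2:**
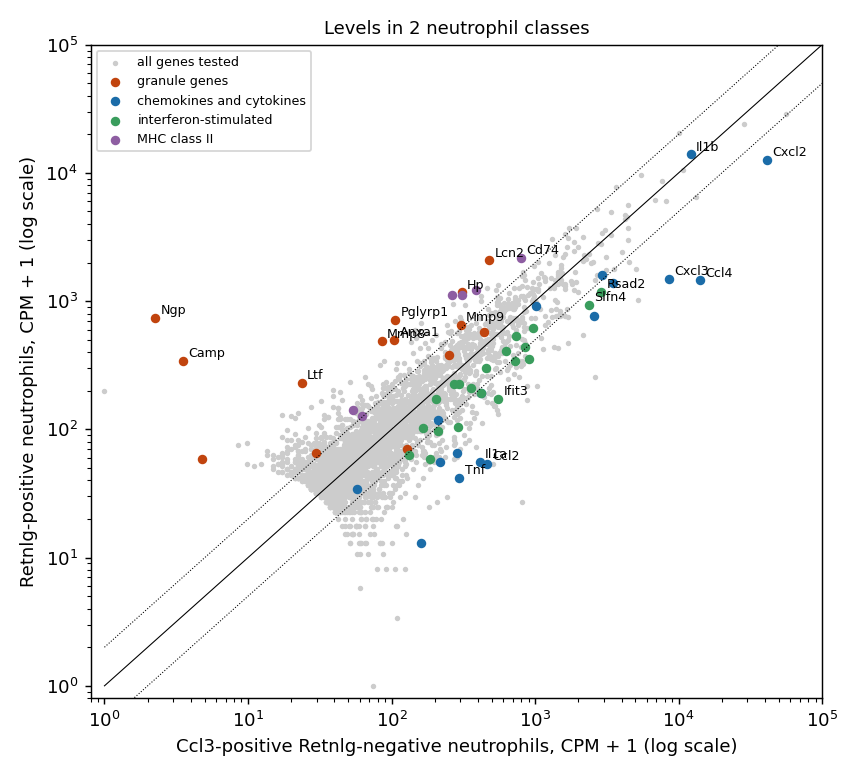
CPM plus 1 of each of 3210 genes in Ccl3-positive Retnlg-negative neutrophils (x axis) and Retnlg-positive neutrophils (y axis), both on log scales, with equality (solid line) and 2-fold differences (dotted lines). Granule genes such as Lcn2 and Mmp8 lie above the lines, chemokines such as Ccl4 and Cxcl2 below, and Il1b close to equality.

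Of 8 genes of the secondary list tested, 5 were at least 2-fold higher (Ltf, Camp, Ngp, Lcn2 and Anxa1) and none lower. The share higher over all genes tested was 6.67%, and the median log2 ratio of the list was 2.13. Over each library's own ratios the median of the list was 0.04. Without the 3 members rich in Ltf, Camp and Ngp, 4 genes of the list reached 30 CPM and 2 of them (Lcn2 and Anxa1) were higher, and of 6 tertiary granule genes 4 were. Of 6 genes of the tertiary list, 5 were higher (Mmp8, Mmp9, Pglyrp1, Ceacam10 and Hp). Over the 7 libraries Ceacam10 was at 0 to 12.8 CPM in Ccl3-positive cells and at 0 to 322 in members, highest in library 10. It reached the limit of 30 CPM through members alone, so it could only be called higher. In the tertiary list 4 to 5 remained past 2-fold without library 4, 8 or 10 or with each cell thinned at random to 500 UMIs. Primary granule genes were nearly silent: Elane, Ctsg and Ms4a3 were at 0, and the 6 genes of the list summed to 14.4 CPM.

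Lcn2, lipocalin 2, which binds bacterial iron carriers, was at 658 CPM in the lowest library of members, 1453 in the median and 6725 in the highest. In the Ccl3-positive cells of the same libraries it was at 94.5 to 915 CPM with a median of 224, and each library's members were above its own Ccl3-positive cells. Pooled, it was at 2078 CPM (1942 to 2221) against 476 (429 to 527), a log2 ratio of 2.1. Mmp8, neutrophil collagenase, ranged over libraries from 188 to 1395 CPM with a median of 457, against 0 to 163 with a median of 6.39. Its log2 ratio was 2.39, and 3.16 without library 4. No Mmp8 value of the Ccl3-positive cells reached the lowest of the members.

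Hp, haptoglobin, which binds free hemoglobin, ranged from 631 to 2114 CPM (median 1249), against 55.9 to 1041 (median 301). Anxa1, annexin A1, a regulator of neutrophil adhesion, ranged from 141 to 1109 CPM (median 519), against 31.5 to 137 (median 107). The ranges of Hp overlapped and those of Anxa1 did not, and both genes were higher in 7 of 7 libraries, with log2 ratios of 1.90 and 2.16. Pglyrp1, a bactericidal peptidoglycan-binding protein, was at 712 CPM against 105 (log2 ratio 2.66) and was higher in 6 of 7 libraries. Mmp9, gelatinase B, was at 649 against 302 CPM (1.08) and higher in 7 of 7, but at 0.995 without library 11.

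**Figure D3:**
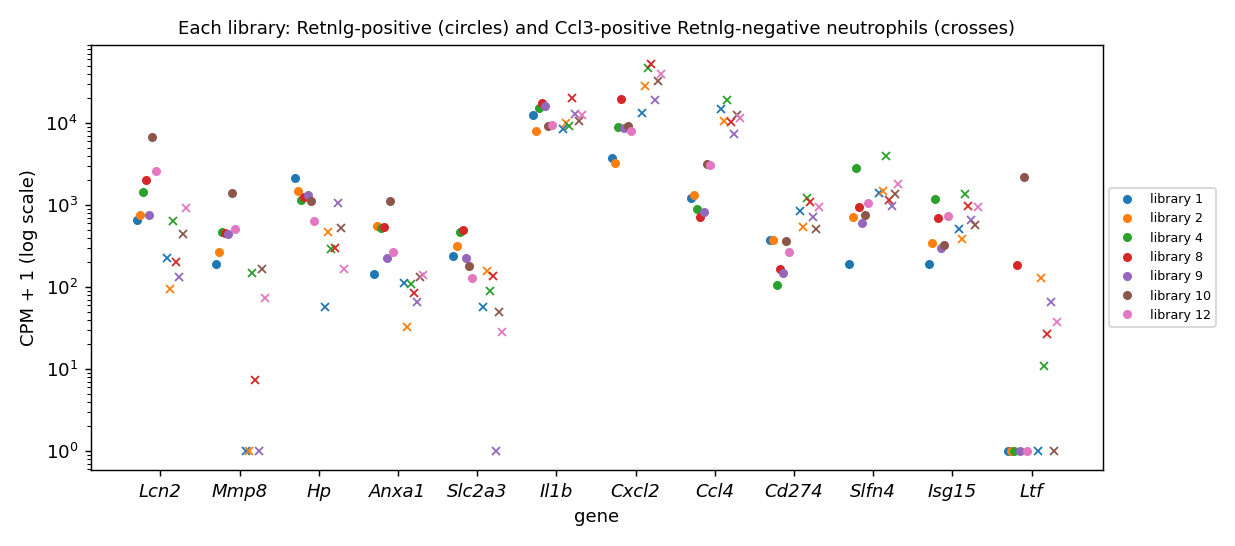
CPM plus 1 (log scale) of 12 genes in the 7 libraries that held at least 10 of either class, with 1 color per library. Circles are Retnlg-positive and crosses Ccl3-positive Retnlg-negative neutrophils. The classes separate for Mmp8, Cd274 and Ccl4, overlap for Il1b, and in Ltf the members' values come from libraries 8 and 10 alone.

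Nearly all Ltf (lactoferrin), Camp (cathelicidin) and Ngp (neutrophilic granule protein) came from 3 members. With 94 to 223 UMIs of these 3 genes each, 1 cell of library 8 and 2 of library 10 held 536 of 546 UMIs (98.2%). Of the other 176 members, 4 had any UMI of them, at most 6. The 3 cells had 15, 140 and 488 Retnlg UMIs, 34 to 181 UMIs of Lcn2 and 13 to 25 of Mmp8 and no UMI of Ccl4. BC100530, a stefin gene, had 52 of its 83 UMIs in 1 of them. Pooled over all members Ngp was at 738 CPM and Camp at 340, with log2 ratios of 6.05 and 4.81 over Ccl3-positive cells. Without the 3 cells the log2 ratios were 1.53 for Ngp, -0.32 for Camp and -1.39 for Ltf, whereas those of Lcn2 (1.5), Mmp8 (2.01), Pglyrp1 (2.35) and Anxa1 (1.86) stayed past 2-fold.

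Because these granule genes were found together in the same cells, the 250 bases before the RefSeq start of 5 of them and of Retnlg are shown (build GRCm38.p6). Capitals mark matches, on either strand, to TTGCNNAA, a core of sites bound by C/EBP factors, the family that drives granulocyte genes. Ltf (chr9:111019042-111019291), Ngp (chr9:110419558-110419807) and Mmp8 (chr9:7558179-7558428) are on the plus strand, as is Retnlg (chr16:48872358-48872607). Camp (chr9:109849457-109849706) and Lcn2 (chr2:32387740-32387989) are on the minus strand, and each sequence is written in the direction of its gene.
Retnlg: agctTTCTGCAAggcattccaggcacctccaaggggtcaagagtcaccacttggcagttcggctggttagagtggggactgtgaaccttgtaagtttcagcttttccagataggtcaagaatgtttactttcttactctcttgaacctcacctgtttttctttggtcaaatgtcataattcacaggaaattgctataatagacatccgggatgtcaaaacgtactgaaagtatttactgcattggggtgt
Lcn2: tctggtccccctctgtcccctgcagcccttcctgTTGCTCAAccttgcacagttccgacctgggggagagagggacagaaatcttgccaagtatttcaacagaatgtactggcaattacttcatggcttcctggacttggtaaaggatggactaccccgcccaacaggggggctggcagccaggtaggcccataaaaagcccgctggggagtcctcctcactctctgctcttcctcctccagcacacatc
Mmp8: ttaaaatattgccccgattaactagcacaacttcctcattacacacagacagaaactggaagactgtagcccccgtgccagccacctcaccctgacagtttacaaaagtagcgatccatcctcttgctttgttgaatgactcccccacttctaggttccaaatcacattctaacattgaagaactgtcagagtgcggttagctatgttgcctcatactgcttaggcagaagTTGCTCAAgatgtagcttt
Ltf: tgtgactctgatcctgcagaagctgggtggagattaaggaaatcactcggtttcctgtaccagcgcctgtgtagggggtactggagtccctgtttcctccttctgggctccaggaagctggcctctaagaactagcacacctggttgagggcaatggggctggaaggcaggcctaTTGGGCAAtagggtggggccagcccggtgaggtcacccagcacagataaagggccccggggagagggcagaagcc
Ngp: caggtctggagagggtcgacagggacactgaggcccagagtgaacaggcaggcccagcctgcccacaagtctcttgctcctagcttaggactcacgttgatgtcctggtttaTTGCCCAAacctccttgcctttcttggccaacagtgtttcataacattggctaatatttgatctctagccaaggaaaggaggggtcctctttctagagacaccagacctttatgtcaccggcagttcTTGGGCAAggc
Camp: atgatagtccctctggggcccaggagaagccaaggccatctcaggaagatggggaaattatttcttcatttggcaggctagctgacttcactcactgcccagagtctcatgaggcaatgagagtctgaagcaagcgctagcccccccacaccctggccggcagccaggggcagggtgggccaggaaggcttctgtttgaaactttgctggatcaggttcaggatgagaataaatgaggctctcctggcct
Ngp held 2 matches, 138 and 11 bases before the start, Ltf 1 (75 bases), Mmp8 1 (19), Lcn2 1 (216), Retnlg 1 (246) and Camp none. Of 27025 promoters of the same length in the table, 9.55% held a match, and of the 18 secondary and tertiary granule genes 15 had an entry and 7 a match. A match is a run of letters and not a measured site.

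Of 14 genes of circulating, mature neutrophils tested, 6 were at least 2-fold higher (Mmp8, Mmp9, Ifitm1, Ifitm6, Selplg and Ly6g) and 1, the antiviral gene Rsad2, was lower, against 6.67 and 8.19% of all genes tested. Ly6g, the marker of mouse neutrophils used in sorting, was sparse: it had a UMI in 11.2% of members and 2.05% of Ccl3-positive cells, and was at 76.7 against 8.82 CPM (log2 ratio 2.20, higher in 7 of 7 libraries). Members of libraries 1 and 4 held 1 UMI of it each, and in library 10 its 2 UMIs were in 1 cell rich in Ltf, Camp and Ngp. Ly6g reached the limit of 30 CPM through members alone, so it could only be called higher. Cxcr2 was at 776 against 488 CPM (0.66, higher in 6 of 7) and did not reach 2-fold. Among 16 chemotactic and adhesion receptors tested, Selplg, the ligand of selectins, Itga4 and Itgal were higher and Icam1 lower, and the number lower, 1 of 16, was near the 8.19% of all genes. The calls of Itga4 (0.73 without library 8), Itgal (0.77 without library 4), Selplg (0.92 without library 11) and Rsad2 (-0.99 without library 8) were lost with 1 library left out.

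Of 20 neutrophil genes, 5 were higher (S100a11, Trem3, Lrg1, Stfa2l1 and Pglyrp1) and Hcar2, the receptor of hydroxybutyrate, was lower, against 6.67 and 8.19% of all genes tested, so the number lower was not above that share. Trem3 fell below 2-fold without library 4 (0.96) and Hcar2 without library 12 (-0.90). Lrg1, a secreted glycoprotein of neutrophil granules, was at 592 against 145 CPM (1.96). Other genes of the 15 with the largest ratios were Pi16, a peptidase inhibitor (129 against 16.4 CPM), Dck, deoxycytidine kinase (134 against 21.4), Hdac4, a histone deacetylase (122 against 20.2), and Snai1, a transcriptional repressor (127 against 18.9). Pi16, Dck and Hdac4 were higher in 7 of 7 libraries and Snai1 in 5, and Snai1 had a log2 ratio of 3.15 without library 4.

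Most chemokines and cytokines were lower than in Ccl3-positive cells. Of 17 tested, 12 were at least 2-fold lower in members and none higher, against 8.19% of all genes tested, and the median log2 ratio was -1.72. It was -1.19, with 10 genes lower, without library 4. Ccl4, which lies beside Ccl3 on chromosome 11, was at 702 to 3148 CPM in the libraries' members (median 1222) and at 7418 to 19287 (median 11399) in Ccl3-positive cells. The ranges did not overlap, and the pooled log2 ratio was -3.26. Cxcl2, a ligand of Cxcr2, was still abundant, at 3207 to 19387 CPM (median 8702) against 13080 to 52360 (median 32155). It was lower in 7 of 7 libraries, with a log2 ratio of -1.69, and of -2.42 without library 8.

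The 5 genes of the list that did not pass 2-fold were Il1b, Osm, Ccl6 (-0.87), Tgfb1 (-0.79) and Il18 (-0.61). Il1b, interleukin 1 beta, was at 8017 to 17516 CPM in the libraries' members (median 12498) and 8440 to 20243 (median 10675) in Ccl3-positive cells, higher in 3 of 7 libraries and lower in 4. Pooled levels were 13972 (13616 to 14335) and 12100 CPM (11860 to 12345). Il1a and Tnf, in contrast, were at 55.1 and 40.7 CPM against 409 and 295, with log2 ratios of -2.69 and -2.59 and no library in which members were higher. Il1rn, the receptor antagonist, was at 767 against 2553 CPM (-1.72), and Osm, oncostatin M, at 913 against 1021 (-0.16). Ccl2 had a log2 ratio of -2.90, but -0.76 without library 4, and members were higher in 4 of 7 libraries.

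Inhba, the activin A subunit, had the lowest ratio of all, at 26.4 against 805 CPM (log2 ratio -4.49), with UMIs in 4.47% of members and 32.5% of Ccl3-positive cells. Leaving out each library gave -4.81 to -4.34. Genes of tumor-resident or aged neutrophils followed: 13 of 22 tested were at least 2-fold lower and none higher, with a median log2 ratio of -1.43, and 12 to 16 were lower without library 4, 8 or 10 or with cells thinned. Cd274, which encodes PD-L1, was at 104 to 376 CPM in the libraries' members (median 268) against 507 to 1217 (median 838), with no overlap and a log2 ratio of -2.18. Hmox1, heme oxygenase 1, was at 168 against 879 CPM (-2.32), the lipid droplet coat Plin2 at 467 against 1695 (-1.84), and the protease inhibitor Cstb at 542 against 2152 (-1.97). Spp1, osteopontin, had a log2 ratio of -3.30, and -2.12 without library 4.

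Of 22 glycolysis and hypoxia genes, 9 were lower and 1 higher, against 8.19 and 6.67% of all genes tested, with a median log2 ratio of -0.85. The number higher was not above the share over all genes. Hk2, which starts glycolysis, was at 81.5 against 346 CPM (-1.96), Egln3, an oxygen-sensing hydroxylase, at 132 against 552 (-1.99), and Ldha, lactate dehydrogenase, at 654 against 1164 (-0.82). Slc2a3 went the other way, at 338 against 86.9 CPM (1.84), and was higher in 7 of 7 libraries. Without library 4, 6 genes of the list were lower, among them neither Pfkp (-0.88), Tpi1 (-0.88), Pgk1 (-0.77) nor Ero1l (-0.97). Among 13 suppressive genes, Arg1, Nos2, Cd274 and Pdcd1lg2 were lower, against 8.19% of all genes tested, and none was higher. For Arg1, arginase, 73.3% of the members' 30 UMIs came from 1 cell, and the log2 ratio of -2.27 became 0.04 without library 4.

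Of 20 interferon-stimulated genes tested, 9 were at least 2-fold lower in members and none higher, against 8.19% of all genes tested, with a median log2 ratio of -0.97. The number lower was 8 without library 4, 4 without library 8 and 5 with cells thinned, and the median stayed between -0.97 and -0.56 in all of these and over the libraries' own ratios. Slfn4, a schlafen gene of myeloid cells, was at 930 against 2364 CPM (-1.34, or -0.69 without library 4), Ifit3 at 173 against 553 (-1.63), and Isg15, a ubiquitin-like protein, at 616 against 966 (-0.64). The 21 genes of the list summed to 4934 to 14738 CPM in the members of the 7 libraries (median 7226), highest in library 4. In each of these libraries the members' sum was below that of all its neutrophils, members included, which ranged from 7669 CPM in library 9 to 15607 in library 4. In 3 libraries with fewer members it was above, at 7282 against 6140 CPM in library 3 (5 members), 19120 against 16450 in library 5 (1 member) and 7324 against 3767 in library 6 (4 members). Among macrophages of the 7 libraries with at least 10 members the sum was 2450 to 3585 CPM.

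Cells also differed in these transcripts. Among the 105 members with at least 1000 UMIs, each thinned to 1000, 62.9% had at least 3 UMIs of the interferon list (52.9 to 72.1%) and 11.4% had none (6.05 to 19.1%). The share was 83.8% (79.2 to 87.7%) of neutrophils with at least 2 Retnlg UMIs and a Ccl3 UMI, and 82.7% (78.3 to 86.5%) of those with Ccl3 and at most 1 Retnlg UMI. It was 71.1% (61.0 to 79.9%) of those with at most 1 Retnlg UMI and no Ccl3. The intervals of members and of both Ccl3-positive classes did not overlap, and those of members and the cells with neither did. Libraries weighed unequally on the classes: library 4 gave 3 of the 105 members (2.86%) and 42.3% of the cells with Ccl3 and at most 1 Retnlg UMI, and library 8 gave 41.9 and 14.2%. Without library 4 the shares were 61.8% of members (51.6 to 71.2%) and 76.4% of the latter class (69.9 to 82.0%), which overlapped, and 80.6% of cells with both (75.1 to 85.3%), which lay above the members. Within library 8 alone they were 54.5% of 44 members (38.8 to 69.6%), 69.1% of cells with both (58.8 to 78.3%) and 70.0% of cells with Ccl3 and at most 1 Retnlg UMI (55.4 to 82.1%), and all 3 overlapped. With all cells thinned to 500 UMIs, the shares were 41.3% of members (34.0 to 48.9%) and 58.6% of cells with neither (52.5 to 64.6%). These intervals did not overlap, but library 4 gave 32.7% of all cells with neither and 12.3% of all members. At 1000 UMIs without library 4, the share of cells with neither was 65.8% (54.0 to 76.3%), which overlapped that of members. The shares at 500 UMIs are not given without library 4. In all 179 members without thinning, the 18 cells with the most UMIs of the list held 45.5% of them.

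MHC class II genes differed through a few cells. Cd74, H2-Aa, H2-Ab1 and H2-Eb1, which load and present peptides on antigen-presenting cells, were at least 2-fold higher in members, with log2 ratios of 1.42 to 2.06, as was H2-DMb1. Without library 12 those of Cd74 (0.83) and H2-DMb1 (0.72) were under 2-fold. Of their 2345 UMIs, 2108 (89.9%) were in 10 members of 7 libraries, with 41 to 746 UMIs each. These 10 cells had a median of 4317 UMIs, against 1158 for the rest, and none had a UMI of Ltf, Camp or Ngp. They held 7 to 97 UMIs of other cell types' markers (median 52.5), against a median of 3 in the other 169 members, of which 11 had more than 10. Without them, 5 of 6 class II genes were at least 2-fold lower than in Ccl3-positive cells, with a median log2 ratio of -1.37. With all members, 8.19% of all genes tested were lower. The 10 cells were chosen by their UMIs of Cd74, H2-Aa, H2-Ab1 and H2-Eb1 and were left out of the members only. A lower ratio follows from that choice, so no difference between the classes is read from it. The part of other cells' transcripts in this, free or from doublets, was not tested. Macrophage markers summed to 1143 to 5625 CPM in the libraries' members, and 9 of the 10 markers were found and Mertk was at 0, while monocyte markers summed to 410 to 4611 CPM.

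In the oxidative burst list, Rac2, a GTPase of the NADPH oxidase, was higher, at 580 against 257 CPM (1.14), and none of the 8 tested was lower, against 8.19% of all genes tested. Of 16 Fc and pattern receptors, Fcgr1, Tlr4 and Clec4n were lower, against the same 8.19%, but Fcgr1 was at -0.39 without library 4 and Tlr4 at -0.71 without library 8. Of 10 survival genes, Bcl2a1a, Bcl2a1b and Bcl2a1d were lower, again beside 8.19% of all genes. These 3 are near-identical copies whose reads can be split between them, so each alone is uncertain, and Bcl2a1d was at -0.54 without library 8. Mcl1, a survival factor of neutrophils, was at 3612 against 3067 CPM (0.24).

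Of 24 transcription factors, 1 was higher and 4 lower, against 6.67 and 8.19% of all genes tested. Spi1, which encodes PU.1, was higher (707 against 302 CPM, 1.20, in 7 of 7 libraries), and Egr1 (-0.89 without library 4), Nfkbia (-0.91 without library 8), Bhlhe40 and Id2 were lower. Cebpb, a C/EBP factor of mature myeloid cells, was at 8637 against 7676 CPM (0.17), and Cebpe, which drives secondary granule genes in marrow precursors, had 1 UMI in all members. Of 21 immediate early and heat shock genes, Btg2 was higher (1.04, or 0.81 without library 4) and Egr1 and Ier3 were lower, numbers near the shares over all genes, and of 11 MHC class I genes none passed 2-fold.

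Of 16 cell cycle genes, 3 were at 0 and 4 reached the limit of 30 CPM, none of which differed 2-fold, and Mki67 had 4 UMIs in 1.68% of members. The target of the inhibitor was close to the limit of detection: Ezh2 had 8 UMIs in 7 of 179 members (19.2 CPM, 8.28 to 37.8), against 8.82 CPM (3.55 to 18.2) in Ccl3-positive cells. The intervals overlapped, no test of a difference in Ezh2 was made, and so few UMIs leave it open. Of 6 polycomb genes tested, none passed 2-fold in the ratio of CPM plus 10. Eed, the H3K27me3-binding subunit, was just under it, at 52.7 against 21.4 CPM, which without the added 10 is more than 2-fold. Against cells with both Retnlg and Ccl3, Eed was past 2-fold higher, as 1 of 5 polycomb genes tested, and none was lower. The share higher over all genes in that comparison was 5.51%.

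The 1273 neutrophils were also divided into 4 classes by the 2 genes of the rule: 179 members, 337 cells with both, 266 with neither and 491 with Ccl3 and at most 1 Retnlg UMI. Cells called neither had no Ccl3 and at most 1 Retnlg UMI, and 47 of the 266 had 1. Median UMIs of the 4 classes were 1377, 3234, 855 and 1738, so shares below are after thinning each cell to 1000 UMIs, which left 105, 314, 97 and 352 cells. Without thinning, Ccl3 was at 0 in 34.7% of neutrophils with at least 2 Retnlg UMIs and in 35.1% of the others. In cells thinned to 1000 UMIs these shares were 38.4 and 30.7%, and in all 1273 thinned to 500 UMIs they were 60.9 and 43.9%. Of 314 cells with both genes, 23 met the limits on Retnlg and Ccl3 once thinned to 1000.

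Mmp8 had a UMI in 25.7% of members (17.7 to 35.2%), 11.8% of cells with both (8.43 to 15.9%), 6.19% with neither (2.30 to 13%) and 6.25% with Ccl3 (3.96 to 9.31%). Pooled over libraries, its interval in members lay above the other 3. Wfdc21, a whey acidic protein family member, had the same order, at 46.7% of members and 29.3, 17.5 and 18.5% of the others, and Lcn2 was found in 54.3% of members and 37.3, 36.1 and 27.3% of the others. Cxcr2 was found in 53.3% of members and 50.5% of cells with neither, against 31.8 and 33.5% of the 2 classes with Ccl3. Cd274 was found in 13.3% and 27.8%, against 51.9 and 50.6%, and Ccl4 in 32.4 and 30.9%, against 78.0 and 72.7%. Il1b was found in 95.2 to 97.9% of all 4 classes. These shares are pooled over libraries that weighed unequally. Library 4 gave 2.86% of the thinned members and 42.3% of the thinned cells with Ccl3 and at most 1 Retnlg UMI. Library 8 gave 41.9 and 14.2%. The shares of these genes are not given within a library or without one, so a difference between libraries cannot be told apart from one between classes.

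**Figure D4:**
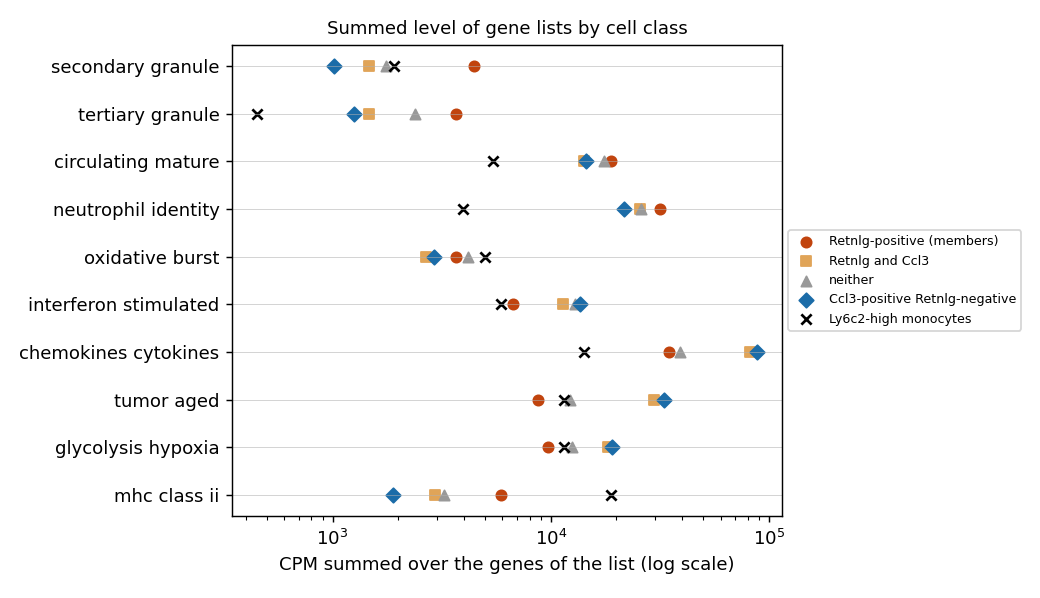
CPM summed over the genes of 10 lists (log scale) in members, the neutrophil classes with both and with neither of Retnlg and Ccl3, Ccl3-positive Retnlg-negative neutrophils, and Ly6c2-high monocytes. Cells with neither had no Ccl3 and at most 1 Retnlg UMI. Members have the highest sums of both granule lists, 4443 and 3693 CPM, and among neutrophils the lowest sum of the interferon list, 6727 CPM. Class II genes are highest in monocytes.

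Against cells with neither, which had at most 1 Retnlg UMI, 51 of 3418 genes were at least 2-fold higher in members (1.49%) and 205 lower (6.00%). Of chemokines and cytokines 5 of 16 were lower (median log2 ratio -0.60), and of tumor-resident or aged genes 5 of 21 (-0.51). Of 22 glycolysis and hypoxia genes 1 was lower (-0.44), not above the 6.00% of all genes. The median over all genes tested was -0.18. Of 14 genes of circulating neutrophils 3 were higher (-0.02), beside 1.49% of all genes. The 3 comparisons of neutrophil classes share the members, so their values are given side by side. Of the granule genes, Lcn2 had log2 ratios of 1.81 over cells with neither and 1.53 over cells with both, Mmp8 of 1.81 and 1.83, and Pglyrp1 of 1.09 and 1.91. Mmp9 had -0.09 and 1.25, and Cxcr2 -0.23 and 0.93. Of the 20 interferon genes tested, 11 were at least 2-fold lower than in cells with neither and 4 lower than in cells with both. With cells thinned to 500 UMIs these numbers were 6 and 3, and without library 8 they were 4 and 2. Library 4 gave 32.7% of cells with neither and 12.3% of members, and its part in these numbers is not given. Against cells with both, 170 of 3084 genes were higher (5.51%) and 197 lower (6.39%), and the numbers higher without library 8 were 79 over cells with neither and 312 over cells with both.

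Against 1551 Ly6c2-high monocytes, the myeloid cells that enter tumors from blood beside neutrophils, 548 of 3692 genes were at least 2-fold higher in members (14.8%) and 1063 lower (28.8%), with a median log2 ratio of -0.32. All 20 neutrophil genes were higher, with a median log2 ratio of 3.10. The monocytes were chosen without a UMI of Retnlg or Csf3r and the members with both, so higher neutrophil genes follow in part from the choice. G0s2, an inhibitor of fat breakdown, was at 5567 against 24.7 CPM (7.33), Hdc at 1992 against 23 (5.92), Lcn2 at 2078 against 17.4 (6.25), Mmp9 at 649 against 1.12 (5.89) and Cxcr2 at 776 against 3.62 (5.85). Il1f9, interleukin 36 gamma, was at 357 against 1.86 CPM (4.95) and Slc2a3 at 338 against 2.32 (4.82). Lower were the chemokine Ccl2 (52.7 against 1081 CPM, -4.12), Arg1 (71.9 against 1199, -3.88) and the matrix protein Fn1 (-3.43). Members and monocytes had median mitochondrial shares of 0.570% and 3.17%.

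Stefins, inhibitors of cysteine proteases, differed between libraries. Stfa2l1 (chromosome 16, 36156811 to 36161953, plus strand) and Gm5483 (36184212 to 36188111) lie in 1 cluster of similar genes, so reads can be split between copies. Among members, Stfa2l1 was found in 44 of 131 cells of libraries 1 to 9 and in 0 of 48 of libraries 10 to 12. Among all neutrophils, libraries 1 to 4 and 7 to 9 held 152 to 579 CPM of Stfa2l1, library 10 held 13.6 (2.80 to 39.6), library 12 held 4.45 (0.918 to 13) and library 11 none of 178948 UMIs, which allows up to 20.6. Libraries 5 and 6, with 14 and 11 neutrophils, also had none, with upper bounds of 270 and 201 CPM. Gm5483 was found in 205 of 932 neutrophils of libraries 1 to 9 and in 7 of 341 of libraries 10 to 12, at 790 (755 to 826) against 41.0 CPM (29.8 to 55.0). Other copies of the cluster were sparse: BC100530 was at 24.9 CPM in libraries 1 to 9 and 49.3 in libraries 10 to 12, where all its UMIs were in 2 cells of library 10, Stfa2 at 5.40 and 10.2, Stfa3 at 4.98 and 13, and Stfa1 at 52.7 and 22.3. Retnlg was not lower in libraries 10 to 12 pooled, at 2802 CPM (2703 to 2904) against 1973 (1917 to 2029). Nor was Wfdc17 when pooled, at 3660 against 2135, but it was at 1911 CPM in library 11. The 3 libraries were set apart here after their values were seen, and no label gives their treatment.

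**Figure D5:**
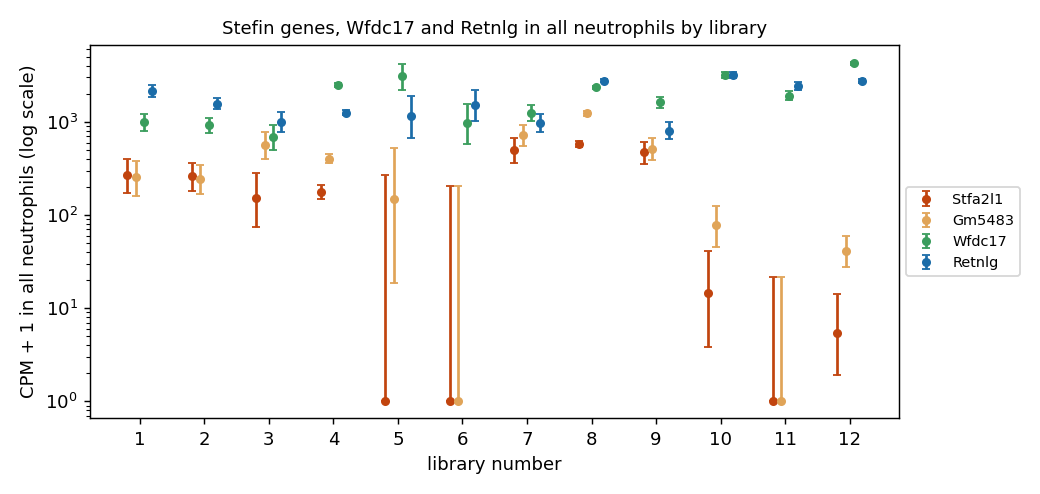
CPM plus 1 (log scale) of Stfa2l1, Gm5483, Wfdc17 and Retnlg in all neutrophils of each of the 12 libraries, with exact Poisson intervals. Stfa2l1 is at 13.6 CPM or less in libraries 10 to 12 and at 152 CPM or more in libraries 1 to 4 and 7 to 9, while Retnlg is at 806 CPM or more in all libraries.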

How the data were processed

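The 12 single-cell libraries hold CD45+ cells isolated from MC38 tumors. The authors deposited 1 pooled matrix of UMI counts per gene and barcode (31053 genes, 140639 barcodes), not normalized. The labels name Cell Ranger 2.1.1, Seurat and mm10, and the matrix header Cell Ranger 3.0.2. Library numbers are not tied to samples by the labels, so no samples were compared by treatment and no paired analysis was made.

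UMIs were summed per class over all libraries with pandas 2.3.3 and numpy 2.4.6, and intervals were made with scipy 1.17.1 under Python 3.11.15. Log2 ratios used CPM plus 10 and genes with a mean of at least 30 CPM. A gene was past the fold at 2-fold or more. The 12 genes of the rule were left out of all comparisons, and Ly6c2 and Ccr2 also against monocytes, which had at least 3 Ly6c2 UMIs and 1 of Ccr2. A planned median over libraries with at least 50 cells of each class was not used, as the most members in a library was 44. The ratio code was tested on simulated data. Doublets were not called or removed. Intervals are exact (Clopper-Pearson for shares, Poisson for CPM), and molecules were counted by UMI. Genes were named from 28 lists or as the 15 highest and 15 lowest against Ccl3-positive neutrophils and monocytes. Members and lists were chosen with earlier results of these data known. Coordinates of genes follow GENCODE, and promoters are from RefSeq. A few genes of the lists are not reported here.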

Additional observations from a re-analysis of the deposited data

Results flagged for a closer look

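The sums of 20 gene lists in members were checked over the 7 libraries with at least 10 members for 1 library far from the others, and 2 lists had one, both in library 10. Chance gives about 1 in 20 such cases if values are normally distributed, which sums over few cells need not be. The lists were summed over the same members, so they are not independent. Secondary granule genes summed to 22250 CPM in members of library 10, and the nearest library had 4093, a gap of 0.850 of the whole range against a critical value of 0.568. Of the 3 members rich in Ltf, Camp and Ngp, 2 were in library 10. Genes of tumor-resident or aged neutrophils summed to 13057 CPM in library 10 and to 8895 in the nearest library, a gap of 0.647 of the range. No cause was tested.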

How the results depend on the processing

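The 179 members became 99 with more than 500 genes required and 87 with each cell thinned to 1000 UMIs, and lay between 133 and 226 with other values of the limits on Retnlg, Ccl3, Csf3r, calprotectin and mitochondrial UMIs or with cells thinned to 500. Dropping 1 limit altogether gave 516 (Ccl3), 445 (Retnlg) and 322 (C1q genes). Genes higher and lower than in Ccl3-positive cells (214 and 263) numbered 81 and 120 with a pseudocount of 50 CPM, 328 and 489 without a filter, 98 and 134 with a mean of at least 100 CPM, and 593 and 586 with the 23 members free of other cell types' markers, and 418 were higher with cells thinned to 500 UMIs. Thinning gave 181 and 397 against cells with neither, and 425 and 300 against cells with both. Against monocytes the numbers were 343 and 514 with the pseudocount of 50, 304 and 417 with a mean of at least 100 CPM, 1843 lower without a filter and 874 higher with marker-free members.

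With each library left out in turn, members numbered 135 to 178. Genes higher and lower ranged from 213 to 278 and 246 to 296 against Ccl3-positive cells, 44 to 79 and 188 to 243 against cells with neither, 160 to 312 and 187 to 218 against cells with both, and 859 to 1110 were lower than in monocytes. Each highest number of the first 3 comparisons came without library 8.

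The share of members with 3 or more interferon UMIs was 41.3% with cells thinned to 500 UMIs. The share with 5 or more was 45.7% with cells thinned to 1000 UMIs and 24.0% with cells thinned to 500. Single log2 ratios over Ccl3-positive cells turned with marker-free members for Ngp (-0.17), Camp (-0.32), Ltf (-1.71) and Ceacam10 (-0.46), without the 3 granule-rich members for Camp (-0.32) and Ltf (-1.39), and over the libraries' median for Ltf (-0.98) and Ccl2 (0.66). The causes were not tested, except that the marker-free members are fewer cells. Of the 214 higher and 263 lower genes, 159 and 169 stayed past 2-fold with cells thinned to 500 UMIs, and 145 and 162 by the median over libraries. The alternatives by thinning, by the libraries' median of at least 10 cells and without granule-rich or class II-rich members, and the interferon shares without library 4 or within library 8, were chosen after seeing the data. Medians over libraries with 50 or 100 cells, and marker-free members by library (7 at most in a library), gave no value. No paired analysis was possible because the matrix's libraries carry no replicate number of the labels and no result comes from a test.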
